A study of Caenorhabditis elegans with 8 samples.

Results

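The ligand-gated ion channel genes of Caenorhabditis elegans examined here are 72 genes of 17118 with probe sets of their own on the array. They were taken by gene symbol, not by any measured value: every acr gene (20) and lgc gene (45), and 7 genes with older names, unc-29, unc-38, unc-63, unc-49, eat-2, deg-3 and des-2. They are read by 81 probe sets, and 7 genes have more than 1. Of 84 genes with such symbols in the RefSeq annotation, 12 have no probe set of their own and were not analysed here. All groups carried the same genotype, glp-1(q224) III in strain JK1107, a temperature-sensitive mutation under which the germ line fails to proliferate at 25°C. RNA was pooled from whole animals, with 1 pool on each Affymetrix C. elegans Genome array: 3 pools held embryos at mixed stages, 3 held young adults (day 1 of adulthood) and 2 held aging adults (day 6). By the labels an embryo pool held about 5000 eggs freed from adults raised at 15°C, and an adult pool held 3000 to 5000 animals kept at 25°C, so that embryos and adults also differ in culture temperature. The design text gives smaller pools.

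Most of these genes encode subunits of Cys-loop receptors, in which a ring of subunits surrounds a pore that opens when a transmitter binds. In nematodes the family is large. Acetylcholine opens cation channels on muscle and neurons, of which one class is defined by its sensitivity to the anthelmintic levamisole, whereas GABA, amines and acetylcholine itself open further channels, many of them for chloride. The names lgc and acr were given by sequence, and the ligands of many lgc products are not known.

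Values are given on 2 scales. The deposited intensity is linear and background-subtracted, and it can be negative. The scaled level is that intensity divided by the median of its array. Array medians ran from 56.2 to 64.2 for the embryo arrays, from 19.1 to 21.9 for the young and from 32.4 to 36.9 for the aging adult arrays, so that equal intensities give a scaled level that is lowest in embryos. A noise level, the 95th percentile of the sizes of an array's negative values, ran from 24.4 to 27.7 for the embryo arrays, from 28.7 to 35.04 for the young and from 29.5 to 33.8 for the aging adult arrays. In the young adults this was 1.38 to 1.68 times the array median, against 0.390 to 0.439 times in embryos. All fold changes below compare scaled levels, in log2 units with the standard error (SE) of the fit, unless they are said to be without rescaling. "At least" marks a bound in which a group never above the noise level is set to that level. Fewer cells of a type and less RNA per cell cannot be told apart in whole animals.

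Receptor genes were dim on these arrays. Of the 72 genes, 31 were above the noise level on at least 1 array (43.1%, against 69.3% of all genes), and 41 were above it on none, with intensities from -36.3 to 33.7. The acr genes above noise numbered 9 of 20, and the lgc genes 17 of 45. Only 5 genes were above noise on all 8 arrays. These were unc-38, a muscle acetylcholine receptor subunit, unc-49, the GABA receptor of body wall muscle, and lgc-22, lgc-39 and lgc-44. All arrays of a group were above noise for 15 genes in embryos, 8 in young adults and 18 in aging adults. This rule covers 3 arrays in embryos and in young adults, but only 2 in aging adults. Of all probe sets, 58.7 to 60.8% were above noise on the embryo arrays. On the young adult arrays it was 41.4 to 45.05%, and on the aging adult arrays 51.1 to 51.3%. By pattern, 5 genes met this in embryos alone (acr-8, lgc-4, lgc-21, lgc-33, lgc-47), 7 in aging adults alone (acr-15, acr-16, acr-21, deg-3, lgc-38, lgc-45, lgc-54), and 2 in both adult groups but not in embryos (acr-18, lgc-32). Embryos and aging adults, but not young adults, held lgc-20, lgc-26, lgc-27 and unc-29, and lgc-34 met it in embryos and young adults but not in aging adults.

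**Figure D1:**
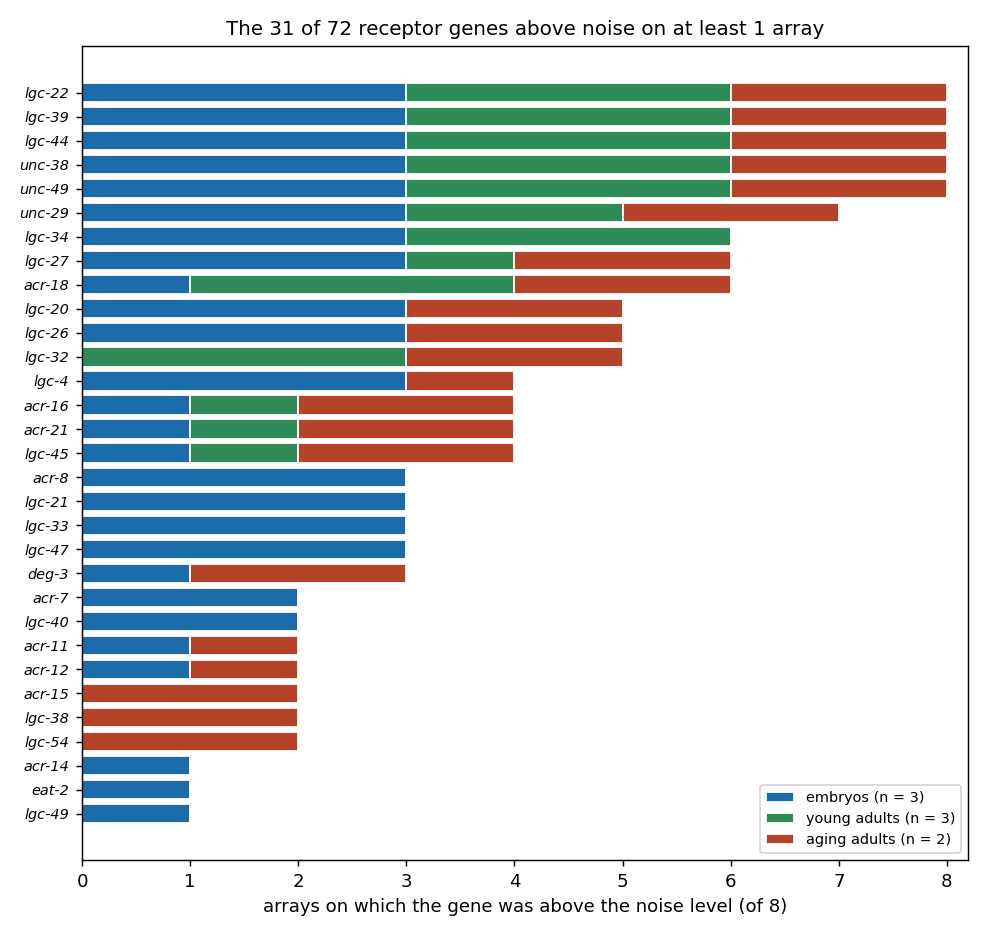
Number of arrays, of 8, on which each receptor gene was above the noise level, with a coloured segment for embryos (3 arrays), young adults (3) and aging adults (2). Only the 31 genes above noise on at least 1 array are drawn, and 5 of them fill all 8.

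The comparison of aging with young adults asked whether receptor transcripts differed between day 1 and day 6 of adulthood. Few passed the test: 3 genes of 72 were higher in aging adults (4.17%, against 2.74% of all genes) and 1 was lower (1.39%, against 4.44%), at an adjusted p under 0.05 in limma. Without rescaling the split was 9 higher and 1 lower, and under quantile normalization 3 and 2. Of all 17118 genes, 2723 were higher and 326 lower without rescaling, and 507 and 621 under quantile normalization. The median log2 fold change of the 72 genes was -0.02, and that of all genes was -0.01. A gene was called measurable in a comparison when at least 1 of its groups was above noise on every array. This held for 19 genes here, of which 1 was higher and 1 lower, against 3.84% and 7.42% of all measurable genes. Both calls belonged to lgc genes, lgc-26 and lgc-34, and they ran in opposite directions.

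The intensity of lgc-26 (Y58G8A.1) was 24.6, 30.9 and 24.1 in the young adults, below noise on each array, and 201 and 239 in the aging adults. Embryos lay between them, at 62.4, 87.4 and 85.9, and no groups overlapped in intensity. Its scaled level rose in aging adults by 2.31 (SE 0.24, adjusted p = 0.00326), at least 4.19-fold. It was 4.97-fold lower in embryos than in aging adults (-2.31, SE 0.24, adjusted p = 0.000317). Against young adults the embryos had a scaled log2 fold change of -0.00 (adjusted p = 0.989), which without rescaling was 1.56 (adjusted p = 0.000754).

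The pattern of lgc-34 (T27A1.4) was the opposite. Its intensity was 161, 146 and 128 in young adults and 12.8 and 18.97 in aging adults, where no array was above noise. The scaled level fell by 3.96 (SE 0.35, adjusted p = 0.00214), at least 7.67-fold. Embryo intensities of 112, 138 and 222 spanned those of the young adults, and all embryo arrays stood above both aging arrays, with a scaled level at least 2.71-fold higher (log2 2.46, SE 0.35, adjusted p = 0.00145). Embryos against young adults depended on the scaling, at -1.50 (adjusted p = 0.00614) after division by the median and 0.07 (adjusted p = 0.903) without rescaling. The aging calls of lgc-26 and lgc-34 passed under quantile normalization, without rescaling and with any array left out.

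The other 2 genes called higher in aging adults, lgc-50, which encodes a serotonin-gated channel, and lgc-57, were below noise on every array. The intensity of lgc-57 was 25.4 and 28.1 in aging adults and -23.6 to -0.503 in young adults. That of lgc-50 was 4.71 and 2.90 in aging adults against -9.33, -4.18 and -7.53. Both calls compare values below the noise level with young adult values set to the floor of 0.01, and no fold is given for them.

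**Figure D2:**
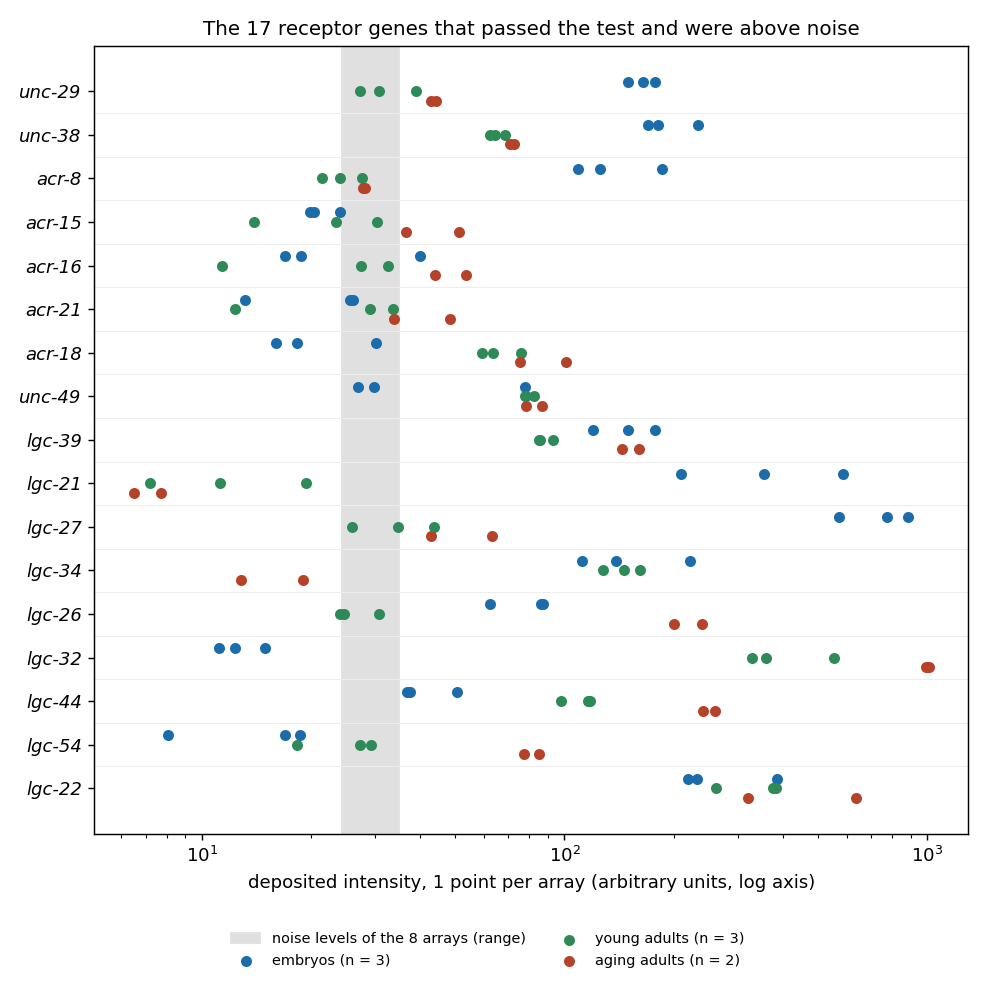
Deposited intensity of the 17 receptor genes that passed the test in at least 1 comparison in which they were measurable, with 1 point per array on a log axis and the range of the 8 arrays' noise levels in grey. The adult arrays of lgc-32 lie at 330 and above and its embryo arrays at 15.0 and below, whereas lgc-21 has the reverse order.

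The comparisons of embryos with each adult group asked how receptor transcripts differed between developing and adult animals. Both use the same embryo arrays, so their values are given side by side and not as separate support. Against young adults, 5 genes were higher in embryos (6.94%, against 22.5% of all genes) and 23 were lower (31.9%, against 31.2%). Against aging adults, 8 were higher (11.1%, against 17.8%) and 19 lower (26.4%, against 27.1%). The shares lower in embryos were near those of all genes. Without rescaling the split was 13 higher and 3 lower against young adults, and 8 and 8 against aging adults. Of all 17118 genes, 6627 were then higher and 2167 lower against young adults, and 4493 and 2518 against aging adults. Of the calls against young adults, 15 belonged to genes with no embryo or young adult array above noise. These include acr-15 and lgc-54, which were above noise on both aging arrays. Of the calls against aging adults, 10 belonged to genes with no embryo or aging adult array above noise. Among them acr-23, a betaine receptor gene, acr-24 and lgc-9 had negative intensities on all 8 arrays, and their shared log2 fold change of -1.56 in embryos against young adults is that of the array medians alone.

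Measurable genes numbered 17 against young adults and 24 against aging adults. Of the 17, 4 were higher in embryos (23.5%, against 34.7% of all measurable genes) and 7 lower (41.2%, against 34.5%), while without rescaling 10 were higher and 3 lower. Of the 24, 6 were higher (25.0%, against 25.8%) and 11 lower (45.8%, against 33.9%), and without rescaling 6 and 5. The median log2 fold change of the measurable receptor genes was -0.48 against young adults (0.25 for all measurable genes) and -1.37 against aging adults (-0.04). Of the receptor genes, 7 were above noise on all arrays of the aging adults alone, and 5 on those of the embryos alone. These were measurable only through that group, so no result is read from these counts, shares and medians. Leaving out aging replicate 1 or 2 left 7 of the 11 genes lower.

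Among the measurable genes the widest difference belonged to lgc-32 (T19D7.1). Its intensity was 12.4, 11.1 and 15.0 in embryos, below noise on each array, against 359, 330 and 554 in young adults and 1010 and 990 in aging adults. The scaled level in embryos was at least 46.7-fold lower than in young adults (-6.55, SE 0.22, adjusted p = 4.07e-06). Against aging adults it was at least 68.9-fold lower (-7.11, SE 0.24, adjusted p = 9.81e-06). The adult groups did not overlap in intensity, but their scaled difference of 0.56 (SE 0.24) missed the test at an adjusted p of 0.22. Without rescaling it was 1.31 (adjusted p = 0.0188), where the median of all genes stood at 0.74.

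Genes lower in embryos than in both adult groups also included lgc-44 (F46F3.2) and acr-18 (F28F8.1), the latter of the DEG-3 group of acetylcholine receptor subunits. The intensity of lgc-44 was 36.8, 37.4 and 50.4 in embryos, 97.7, 117 and 116 in young adults and 241 and 260 in aging adults. The groups stood in that order without overlap. Its scaled level in embryos was 7.92-fold lower than in young adults (-2.99, SE 0.18, adjusted p = 2.71e-05) and 10.7-fold lower than in aging adults (-3.42, SE 0.20, adjusted p = 3.99e-05). Between the adult groups the scaled log2 fold change of lgc-44 was 0.44 (adjusted p = 0.242), and 1.19 without rescaling (adjusted p = 0.00962). For acr-18 the intensities were 18.3, 16.0 and 30.3 in embryos, of which 1 was above noise, 59.4, 63.6 and 75.8 in young adults, and 101 and 75.6 in aging adults. All adult arrays were above all embryo arrays. The scaled level of acr-18 in embryos was 9.41-fold lower than in young adults (adjusted p = 0.000115) and 7.43-fold lower than in aging adults (adjusted p = 0.000448).

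The intensity of lgc-54 (T15B7.16) was above noise on both aging arrays, at 85.3 and 77.1, and on no other array. The embryo intensities were 8.07, 18.6 and 17, and those of young adults 18.3, 27.2 and 29.2. Its scaled level was at least 5.59-fold lower in embryos than in aging adults (-3.39, SE 0.42, adjusted p = 0.000721). From young to aging adults the scaled log2 fold change of 0.98 (SE 0.42) missed the test (adjusted p = 0.211). It passed without rescaling (1.73, adjusted p = 0.0453) and with values raised to the noise level (0.63, adjusted p = 0.00149).

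Embryos held the highest levels of lgc-21 (C33G3.3) and lgc-27 (Y74E4A.1). The intensity of lgc-21 was 210, 356 and 588 in embryos, and 6.51 to 19.4 on the 5 adult arrays, all below noise. Its scaled level was at least 3.83-fold higher than in young adults (log2 3.36, SE 0.48, adjusted p = 0.000981) and at least 6.34-fold higher than in aging adults (4.82, SE 0.54, adjusted p = 0.000456). The lowest embryo array of lgc-21 was still above every adult array. The intensity of lgc-27 was 571, 774 and 887 in embryos, 25.9, 34.7 and 43.7 in young adults, and 63.2 and 42.9 in aging adults. The adult groups overlapped. Its scaled level in embryos was 7.28-fold higher than in young adults (log2 2.86, SE 0.22, adjusted p = 6.2e-05) and 7.98-fold higher than in aging adults (2.996, SE 0.24, adjusted p = 0.000118).

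**Figure D3:**
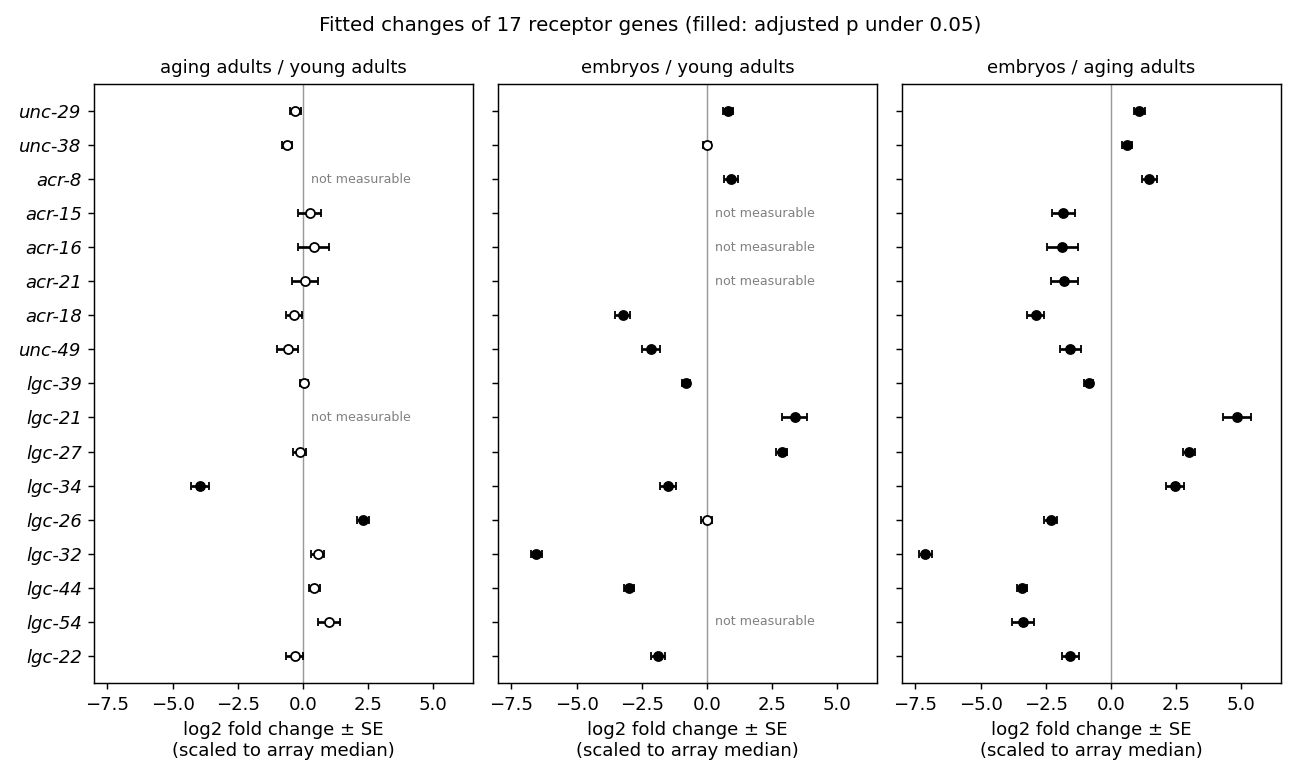
Log2 fold change of the scaled level, with its standard error as a bar, for the 17 receptor genes in the 3 comparisons. Filled points have an adjusted p under 0.05, and a gene is marked as not measurable where neither group was above noise on all its arrays. In aging against young adults the filled points are lgc-26 at 2.31 and lgc-34 at -3.96.

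Several subunits of the levamisole-sensitive receptor of body wall muscle were higher in embryos, and others were not. Of 7 genes listed for it, 6 had probe sets of their own. Against young adults unc-29, acr-8 and lev-8 passed the test, and these and unc-38 passed against aging adults. Most of them were measurable against young adults only through the embryo arrays, where they are high, so no share is read from these counts. The median log2 fold change of the 6 was 0.86 against young adults and 0.85 against aging adults, beside -0.38 and -0.45 for all genes. The embryo intensity of unc-29 (T08G11.5) was 149, 165 and 178, with 30.8, 27.3 and 39.03 in young adults and 42.9 and 44.3 in aging adults. Its scaled level was 1.73-fold higher in embryos than in young adults (log2 0.79, SE 0.19, adjusted p = 0.0116) and 2.13-fold higher than in aging adults (1.09, SE 0.21, adjusted p = 0.00598). Every embryo array of unc-29 was above every adult array.

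The intensity of acr-8 (ZC504.2), whose product can join receptors of this class, was 109, 126 and 185 in embryos and 21.5 to 28.1 in adults, where no array was above noise. Its scaled level was at least 1.48-fold higher than in young adults (log2 0.93, adjusted p = 0.0217, 0.0521 under quantile normalization, 0.0652 without embryo replicate 3 and 0.0564 without young replicate 2). Against aging adults it was at least 2.45-fold higher (1.47, adjusted p = 0.00646). The embryo intensities of unc-38 (F21F3.5) were 170, 181 and 234, against 62.3, 68.7 and 64.5 in young and 70.9 and 72.4 in aging adults. The intensities of unc-38 did not overlap between embryos and adults, but its scaled log2 fold change against young adults was 0.01 (adjusted p = 0.98), and 1.57 without rescaling (adjusted p = 0.00019). Against aging adults it was 0.62 (SE 0.19, adjusted p = 0.0321), and the adjusted p was 0.077 under quantile normalization and 0.0657 to 0.16 without embryo replicate 1, embryo replicate 3 or either aging replicate.

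Outside the symbols that define the family, lev-8 (C35C5.5) of the same receptor was at 190, 211 and 230 in embryos and 23.4 to 37.1 in adults, at least 2.28-fold higher in scaled level than in young adults (adjusted p = 0.00037). The embryo intensities of lev-1, at 59.9, 85.5 and 120, spanned the aging adult values of 70.0 and 70.7, and its scaled log2 fold change against aging adults was -0.54 (adjusted p = 0.903). The intensity of unc-63, a further subunit, was -2.74 to 8.44 over all arrays and thus never above noise.

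**Figure D4:**
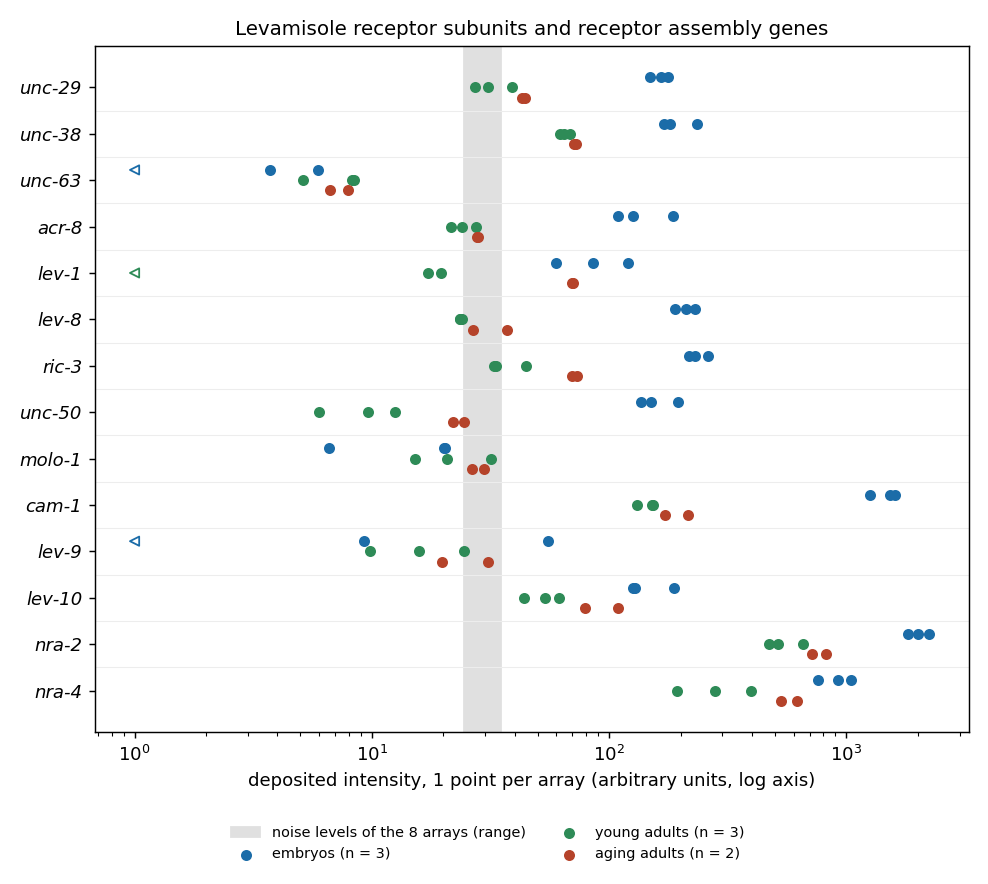
Deposited intensity of 6 levamisole receptor subunit genes (unc-29 to lev-8) and 8 genes of receptor assembly, clustering or trafficking (ric-3 to nra-4), with 1 point per array on a log axis and the range of noise levels in grey. Open triangles at the left edge are arrays with an intensity under 1. The embryo points of unc-29, unc-38, acr-8 and lev-8 lie at 109 and above.

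For some measurable genes the direction or the call depended on the scaling. The intensity of lgc-39 (F09G2.5) was 120, 150 and 178 in embryos, 85.1, 85.8 and 93.2 in young adults and 161 and 144 in aging adults. Embryo intensities were thus above those of young adults, while the scaled level in embryos was 1.76-fold lower (-0.82, SE 0.15, adjusted p = 0.00319). Without rescaling the log2 fold change of lgc-39 was 0.74 (adjusted p = 0.00815), where the median of all genes stood at 1.19. Against aging adults the scaled value was -0.86 (adjusted p = 0.00575), and -0.05 (adjusted p = 0.891) without rescaling. For lgc-22 (F15E6.2) the intensities overlapped among all groups, at 219, 233 and 384 in embryos, 262, 375 and 384 in young adults and 636 and 321 in aging adults. Its scaled level was 3.68-fold lower in embryos than in young adults (-1.88, adjusted p = 0.00137), and without rescaling the difference was -0.32 (adjusted p = 0.494). Against aging adults lgc-22 had -1.56 (adjusted p = 0.00743, and 0.0517 without aging replicate 1), and without rescaling -0.75 (adjusted p = 0.185).

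The GABA receptor gene unc-49 (T21C12.1) has 4 probe sets, of which 2 were above noise on all 8 arrays and 2 on none. The median intensity over these was 26.97, 29.8 and 77.8 in embryos, 82.5, 78.4 and 78.03 in young adults, and 86.7 and 78.5 in aging adults. By this median, embryo replicate 3 lay just below the adults and the other 2 embryo arrays well below them. In the 2 probe sets above noise, embryo replicate 3 lay within the adult range. It was at 133.6 in one (adults 129.7 to 159) and at 177.1 in the other (172.8 to 220.9). The scaled level was 4.43-fold lower in embryos than in young adults (-2.15, SE 0.36, adjusted p = 0.00204) and 2.95-fold lower than in aging adults (-1.56, SE 0.40, adjusted p = 0.0184). Without rescaling these were -0.58 (adjusted p = 0.22) and -0.74 (adjusted p = 0.189), and the second had an adjusted p of 0.0503 without embryo replicate 2 and 0.109 without aging replicate 2.

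In the ACR-16 group of acetylcholine receptor subunits, acr-15, acr-16 and acr-21 were measurable, of 10 genes with a probe set. They were so only through the aging adults, where they are high, so the shared direction of their calls against embryos is no result about the group. The median log2 fold change of the 10 was -1.33, beside -0.45 for all genes. It was set by acr-10 (-1.76) and acr-11 (-0.90), neither of them measurable, so no group result is read from it. The intensity of acr-16 (F25G6.3), the nicotine-sensitive receptor of muscle, was 16.9, 18.8 and 39.9 in embryos, 27.5, 11.4 and 32.6 in young adults and 43.9 and 53.5 in aging adults. Its scaled level was 3.66-fold lower in embryos than in aging adults (-1.87, SE 0.60, adjusted p = 0.0398), and those of its chromosomal neighbour acr-15 (-1.83, adjusted p = 0.014) and of acr-21 (-1.79, adjusted p = 0.0281) were lower too. These calls were lost without rescaling, at adjusted p = 0.212, 0.0851 and 0.226. Those of acr-16 (0.0857) and acr-21 (0.0606) were also lost under quantile normalization, and that of acr-15 with the replicate block (0.0536). Leaving out either aging replicate also took each past 0.05, with the highest adjusted p at 0.183 for acr-16, 0.0798 for acr-15 and 0.131 for acr-21. For acr-16 this was so too without embryo replicate 1 or 2 (both 0.103), and for acr-21 without embryo replicate 1 (0.0687).

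**Figure D5:**
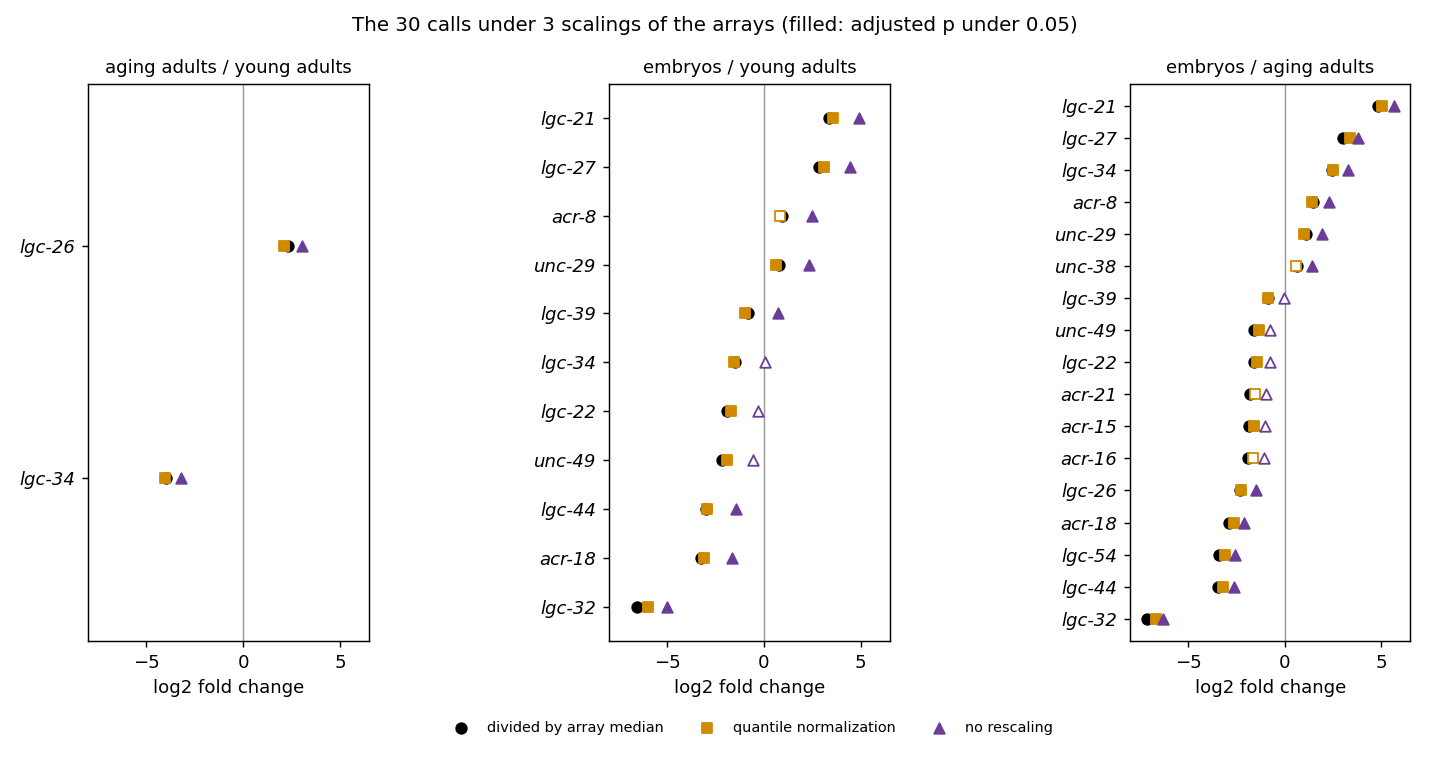
Log2 fold change of the 30 calls on measurable receptor genes under division by the array median, quantile normalization and no rescaling. Filled symbols have an adjusted p under 0.05. Of the 30 calls, 18 are filled in all 3 settings with 1 direction, and lgc-39 in embryos against young adults changes from -0.82 to 0.74.

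Several receptors with known roles were not measurable. No array was above noise for acr-2 of motor neurons (intensity 14.4 to 22.5), lgc-35, a GABA-gated cation channel (1.88 to 10.7), lgc-46, an acetylcholine-gated anion channel (-4.08 to 17.3), or lgc-55, a tyramine-gated chloride channel (-8.36 to 14.8). The intensity of eat-2, needed for fast pharyngeal pumping, was 22.2, 27.5 and 35.2 in embryos, above noise in replicate 3 alone, and 6.33 to 18.1 in adults. That of acr-12, a motor neuron subunit, was above noise on 1 embryo and 1 aging array. The neighbouring genes deg-3 and des-2 encode subunits of a single channel. Only deg-3 was above noise, on both aging arrays and 1 embryo array, so that it was measurable through the aging adults. No comparison of deg-3 passed the test. In embryos against aging adults its scaled log2 fold change was -4.03 (SE 1.62, adjusted p = 0.0846). That comparison passed with log2 of the scaled value plus 0.1 (-2.08, adjusted p = 0.0202). It also passed with values raised to noise (-1.32, adjusted p = 1.73e-08). In that setting the median of all 17118 genes was -1.12 and 10923 were called lower, so no fall of deg-3 is read from it. The intensity of des-2 was 8.97 to 22.7 over all arrays, below noise throughout.

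Genes that act with these receptors were examined in lists chosen by function. Among 12 genes of receptor assembly and clustering with a probe set, 10 were measurable in the embryo comparisons. Against each adult group 3 of them rose in embryos and none fell. Of all measurable genes 34.7% rose and 34.5% fell against young adults, and 25.8% and 33.9% against aging adults. The 3 were ric-3, a chaperone of acetylcholine receptors, unc-50, needed for their transport, and cam-1, a Ror receptor kinase. Of these unc-50 was measurable only through the embryos, where it is high. In the same list molo-1 was called lower but was not measurable, so no shared direction is read from these counts. The intensity of cam-1 was 1525, 1605 and 1258 in embryos, 131, 153 and 152 in young adults and 214 and 172 in aging adults, 3.88-fold higher in scaled level in embryos than in young adults (log2 1.96, SE 0.18, adjusted p = 0.000121). The embryo intensities of ric-3 were 218, 230 and 260, against 32.6 to 44.5 in young adults, a scaled log2 fold change of 1.14 (SE 0.22, adjusted p = 0.0041). For unc-50 it was 3.06 (SE 0.38, adjusted p = 0.000557). Against aging adults ric-3 stood at 0.91 (adjusted p = 0.0229), with 0.057 to 0.122 on leaving out embryo replicate 1 or 3 or either aging replicate, and unc-50 at 1.99 (adjusted p = 0.00869, 0.0502 without aging replicate 1 and 0.145 with its brightest probe set alone).

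Of the other Cys-loop receptors, the glutamate-gated chloride channel genes glc-1 and glc-2 were lower in embryos. The intensity of glc-1 was 28.98, 30.25 and 35.9 in embryos, 242, 640 and 417 in young adults, and 559 and 346 in aging adults, 37.6-fold lower in scaled level in embryos than in young adults (-5.23, SE 0.33, adjusted p = 3.22e-05). The scaled level of glc-2 was 10.1-fold lower (-3.33, SE 0.14, adjusted p = 9.14e-06). Of the 9 measurable genes in that list, 1 was higher and 4 lower in embryos than in young adults, beside 34.7% and 34.5% of all measurable genes, and none passed between the adult groups. One of the 4, cup-4, functions in endocytosis by coelomocytes (-1.71, adjusted p = 8.71e-05, and -0.15 with an adjusted p of 0.422 without rescaling).

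Among 11 genes of acetylcholine and GABA synthesis, transport and breakdown, snf-11, the GABA transporter, was the only one to pass in aging against young adults. Its intensity was 26.1, 23.5 and 21.7 in young adults and 91.5 and 122 in aging adults (log2 1.41, SE 0.32, adjusted p = 0.0468). That call was lost under quantile normalization (adjusted p = 0.14) and on leaving out any array but embryo replicate 3 (0.0645 to 0.224). In embryos against young adults, where 34.7% of all measurable genes rose and 34.5% fell, 2 of 6 measurable genes of this list rose, snf-11 (2.11, adjusted p = 0.000837) and the acetylcholinesterase gene ace-3 (at least 2.11-fold, adjusted p = 0.00371), and 3 fell, among them unc-25 of GABA synthesis (-1.87, adjusted p = 0.000837) and unc-17, the vesicular acetylcholine transporter (-1.77, adjusted p = 0.0051). Without rescaling these falls were -0.30 (adjusted p = 0.432) and -0.21 (adjusted p = 0.659). Of 10 ionotropic glutamate receptor genes, 4 were measurable. Among these glr-4 alone passed, lower in embryos than in young adults (-0.80, adjusted p = 0.0446, and 0.76 without rescaling) and aging adults (-1.24, adjusted p = 0.0165). The first was lost on leaving out any array but embryo replicate 3 (adjusted p 0.0503 to 0.128), and the second on leaving out aging replicate 1 (0.063) or 2 (0.0837) and without rescaling (-0.43, adjusted p = 0.311). Calls on molo-1, an auxiliary protein of the levamisole receptor, and on the glutamate receptor genes nmr-1 and glr-2 rested on intensities with no group above noise on all its arrays, and no change is read from them.

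Markers of the tissues that could hold these transcripts moved between the groups as well. For 16 pan-neuronal genes the summed scaled level was between 81.2 and 90.6 in embryos, between 287 and 398 in young adults, and between 327 and 344 in aging adults, and 10 of the 15 measurable genes were lower in embryos than in young adults, with 1 higher (34.5% and 34.7% of all measurable genes). The summed intensities of these neuronal genes overlapped, at 4613 to 5776 in embryos and 5658 to 8559 in young adults. For 13 body wall muscle genes the sum was 207 to 255, 1313 to 2035 and 540 to 614. Of the 12 measurable ones, 6 were lower in aging than in young adults (7.42% of all measurable genes). All 13 germ line and oocyte markers were above noise on all embryo arrays, none on all young adult arrays and 3 on both aging arrays (glh-1, mex-3 and oma-2). Their part in the receptor values was not tested.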

How the data were processed

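Total RNA from pools of glp-1 nematodes was hybridised to 1 array each, and groups and replicate numbers were taken from the sample labels. Scans were read by the authors in GCOS before import to Rosetta Resolver. For each of 22548 probe sets the deposited file gives a linear, background-subtracted intensity, with no common scale across arrays. The authors' Resolver table, which holds their own fold changes and p values, was not used here. As in the study's GeneSpring steps, a floor of 0.01 was applied to the intensities and the array's median was divided out. The further GeneSpring step, per gene division by the young adult mean, was left out, and log2 values were formed here. A gene is the median of its own probe sets, and 4 probe sets that receptor genes share with another gene were left out.

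All 8 arrays were fitted in limma 3.58.1 (R 4.3.3) with a variance trend and no covariates, after the method was tested on simulated data. The simulation used normal noise, with changes planted only in aging against young adults and only in genes above the array median. Recovery of changes in dim genes was not tested. P values are two-sided and Benjamini-Hochberg adjusted over the 17118 genes within a comparison, with a threshold of 0.05. The labels do not say that pools came from separate cultures, so p measures the spread between these pools, and the number of arrays limits the precision. A gene is above noise on an array if any of its probe sets is. Named genes are the measurable receptor genes past the test in any comparison, 16 receptor genes named whatever their result, and up to 4 genes past the test with the smallest adjusted p from each of 4 lists of other genes. lgc-57, acr-24 and lgc-9 were named after their values were seen. The members, lists and noise rule were chosen with earlier results of these data known. Alternatives were quantile normalization, no rescaling, values raised to the noise level, log2 of the scaled value plus 0.1, a filter on dim genes, other choices of probe set, a fit of the groups compared alone, a replicate block, no variance trend, an unadjusted p and each array left out. No sequences are shown, as no sequence tables were used here.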

Additional observations from a re-analysis of the deposited data

How the results depend on the processing

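Of the 30 calls on measurable receptor genes, the counts kept with direction and threshold were 30 with log2 of the scaled value plus 0.1, with values raised to noise, with the filter on dim genes, with the highest probe set and with the fit of the groups compared alone, 29 without a variance trend, 27 with the replicate block, 26 under quantile normalization and 20 without rescaling. With values raised to noise, the median of all genes was -0.73 in aging against young adults. It was -1.85 in embryos against young adults and -1.12 against aging adults. Calls of lower were thus favoured in advance in that setting, and their being kept there is no support for them. Correlations of deviations from the group means ran from -0.0574 to 0.146 for same-numbered arrays and from -0.148 to 0.0574 for the others. The deviations of the 2 aging arrays mirror each other, so these values cannot decide whether replicate numbers pair the arrays. With the replicate block 3 genes were higher and 1 lower in aging than in young adults. Embryos then had 4 higher and 18 lower than young adults, and 6 higher and 13 lower than aging adults.

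Counts of all receptor genes moved with the scaling and with the treatment of dim values. Aging against young adults had 3 higher and 1 lower, with 9 higher without rescaling, 1 higher with only genes above noise on at least 2 arrays, 5 higher and 7 lower at an unadjusted p, and 2 lower both under quantile normalization and with log2 of the scaled value plus 0.1. Embryos against young adults had 5 higher and 23 lower, with 13 and 3 without rescaling and 14 lower with the filter on dim genes. Embryos against aging adults had 19 lower, with 8 without rescaling and 11 with the filter. Raising values to the noise level made 59, 65 and 64 genes lower in these comparisons, since that level is a different multiple of the median in each group. Among measurable genes, aging against young adults had 1 higher and 1 lower, with 6 higher without rescaling, 2 higher and 7 lower with values raised to noise and 2 lower at an unadjusted p. Embryos had 10 higher and 3 lower than young adults and 5 lower than aging adults without rescaling.

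With each array left out in turn, aging against young adults had 3 to 5 receptor genes higher (5 without aging replicate 1) and 1 to 2 lower. Embryos had 4 to 6 higher and 17 to 23 lower than young adults. They had 5 to 8 higher than aging adults, with 5 without embryo replicate 1, embryo replicate 3 or aging replicate 1, and 9 to 21 lower, with 11 without aging replicate 1 and 9 without aging replicate 2. Among measurable genes aging against young adults kept 1 higher and 1 lower, while embryos had 3 to 4 higher and 7 lower than young adults, and 5 to 6 higher and 7 to 11 lower than aging adults. Leaving out an array kept 222 of the 240 tests of the receptor calls, and the other 18 concern the 7 genes for which the loss stands beside the value.

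Among calls, the log2 fold change without rescaling turned to 0.0653 for lgc-34 and 0.74 for lgc-39, both in embryos against young adults, where glr-4 turned to 0.76. Without probe sets ending in _s_at and _x_at unc-49 was at 4.09 in embryos and 5.77 in aging adults against young adults, from its 1 remaining probe set, which was above noise on no array. The other reversals concern changes that did not pass the test. From young to aging adults and without rescaling, acr-18 turned to 0.41, lgc-22 to 0.43, lgc-27 to 0.62, unc-29 to 0.45, unc-38 to 0.14 and unc-49 to 0.16. With values raised to noise, acr-15 turned to -0.28, acr-16 to -0.15, acr-21 to -0.4265 and deg-3 to -0.49. The median of all genes was then -0.73. Under quantile normalization lgc-39 turned to -0.0774. With each array left out in turn, the values spanned 0 for acr-15 (-0.097 to 0.495), acr-16 (-0.0653 to 0.660), acr-21 (-0.325 to 0.302), lgc-22 (-0.716 to 0.0828), lgc-27 (-0.320 to 0.0542) and deg-3 (-0.363 to 0.540). In embryos against young adults, lgc-26 turned to 1.56 without rescaling and spanned -0.113 to 0.0993 with each array left out. There unc-38 turned to -0.16 under quantile normalization and spanned -0.114 to 0.0906.

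Dim signal is a limit. Of the 72 receptor genes, 41 never exceeded the noise level, and intensities below 0.01 occurred on at least 1 array for 30, where fold changes depend on the floor. The lone aging array is assumed to vary like the other groups when its partner is left out. For other reversals and lost calls the cause was not tested.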
